A study of Homo sapiens with 6 samples.

Results

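The genes described here are NFE2L2, which codes for the transcription factor NRF2, its inhibitor KEAP1, and 7 genes of the antioxidant response, NQO1, HMOX1, GCLC, GCLM, TXNRD1, TXN and SRXN1. They were chosen by name, and all 9 had a row among the 22152 genes of the deposited table. The libraries came from HaCaT cells, a spontaneously immortalized human keratinocyte line, and measured polyadenylated RNA 48 h after transfection. Cells of the control group (NC) received a negative control mimic at 1 nM and cells of the other group a miR-21-3p mimic at the same 1 nM, with 3 biological replicates in each group. A mimic is a synthetic RNA that enters the cell's own silencing machinery in place of the natural miRNA, and miR-21-3p is the passenger strand of the miR-21 hairpin. As HaCaT cells are a single established line, the replicates are cultures of the same cells.

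NRF2 is a basic leucine zipper factor that dimerizes with small MAF proteins on antioxidant response elements in the promoters and enhancers of its target genes. In unstressed cells KEAP1 binds NRF2 and delivers it to a CUL3 ubiquitin ligase, so that most control of the factor takes place on the protein and not on its mRNA. Oxidants and electrophiles modify cysteines of KEAP1, NRF2 then escapes degradation, and genes for glutathione synthesis, thioredoxin reduction, quinone reduction and heme breakdown are transcribed. In the epidermis this system is known for protecting keratinocytes from ultraviolet light and reactive chemicals. RNA libraries report the mRNA of these genes and neither the amount nor the activity of the NRF2 protein.

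The keratinocyte identity of the libraries was checked with marker genes. Of 10 keratinocyte markers, 9 had a row, KRT5 was the most abundant of them, and their summed normalized counts lay between 301600 and 329655 in the 6 libraries. KRT17 had no row in the table. Of the 9, 2 were higher with miR-21-3p, KRT6A with a log2 fold change of 0.34 (limma adjusted p 0.00110) and SFN with 0.15 (limma adjusted p 0.0483). None was lower past the threshold. The groups also did not overlap for TP63 and DSP, with log2 fold changes of -0.13 and 0.07. Neither passed (limma adjusted p 0.101 and 0.301). Groups without overlap were found for 31.3% of all genes tested. Of the markers of other cell types, none of 6 immune genes had a row, COL1A1 was the only fibroblast gene of 6 with a row and PMEL the only melanocyte gene of 5. A missing row is not a measured absence. The deposited table kept 5278 genes at 0 in all libraries, yet had no row for the keratinocyte gene KRT17. COL1A1 had 560, 390 and 478 normalized counts with NC and 372, 378 and 364 with miR-21-3p, and PMEL at most 155. The groups did not overlap for COL1A1, but its log2 fold change of -0.34 did not pass (limma p 0.00791 before and 0.0612 after adjustment). Of 5 endothelial genes, VWF and CDH5 had rows. VWF, the more abundant, had means of 749 ± 45.1 with NC and 740 ± 25.2 with miR-21-3p (SD, n = 3 each) and did not pass, with a limma adjusted p of 0.896, whereas CDH5 fell from a mean of 385 ± 95.7 (SD, n = 3) to 155 ± 29.3 (SD, n = 3) normalized counts. The limma adjusted p of CDH5 was 0.00579, with a log2 fold change of -1.30. The part of these marker genes in the results was not tested. The libraries came from a single established keratinocyte line, so CDH5, VWF, COL1A1 and PMEL are not read here as counts of other cell types.

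Read totals estimated from the normalized counts were 24402972, 24528089 and 26171030 in the NC libraries and 24805157, 24975443 and 27982497 in the miR-21-3p libraries. Of the 22152 genes, 14782 had a mean of at least 10 normalized counts and were tested, and 1640 of these passed a limma adjusted p of 0.05 (11.1%). The share higher with miR-21-3p was 6.25% (924 genes) and the share lower was 4.84% (716 genes). With edgeR on recovered reads the balance was 904 higher and 789 lower with TMM factors and 813 higher and 845 lower with upper-quartile factors, while limma after scaling to library totals gave 887 higher and 682 lower. These counts depended on single libraries. Without NC replicate 2 the number of genes past the threshold was 3058, whereas it was 620 without NC replicate 1 and 257 without NC replicate 3. It was 308 without miR-21-3p replicate 1, 1622 without miR-21-3p replicate 2 and 399 without miR-21-3p replicate 3.

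After transfection with miR-21-3p the mRNA of 2 of the NRF2 genes, GCLC and NQO1, was higher than with NC, and that of none was lower past the limma threshold. GCLC, the catalytic subunit of the enzyme that makes the first step of glutathione synthesis, rose by 31.3%, and NQO1, a quinone reductase and a widely used marker of NRF2 activity, rose by 19.2%. NFE2L2 and KEAP1 themselves did not pass the test. Of the 9 genes, 8 passed the filter on low values, since SRXN1 was listed at 0, and 6 of the 8 did not pass the test. The 2 of 8 that were higher stand beside 6.25% of all genes tested, a comparison of counts with too few genes to read as a property of the group.

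**Figure D1:**
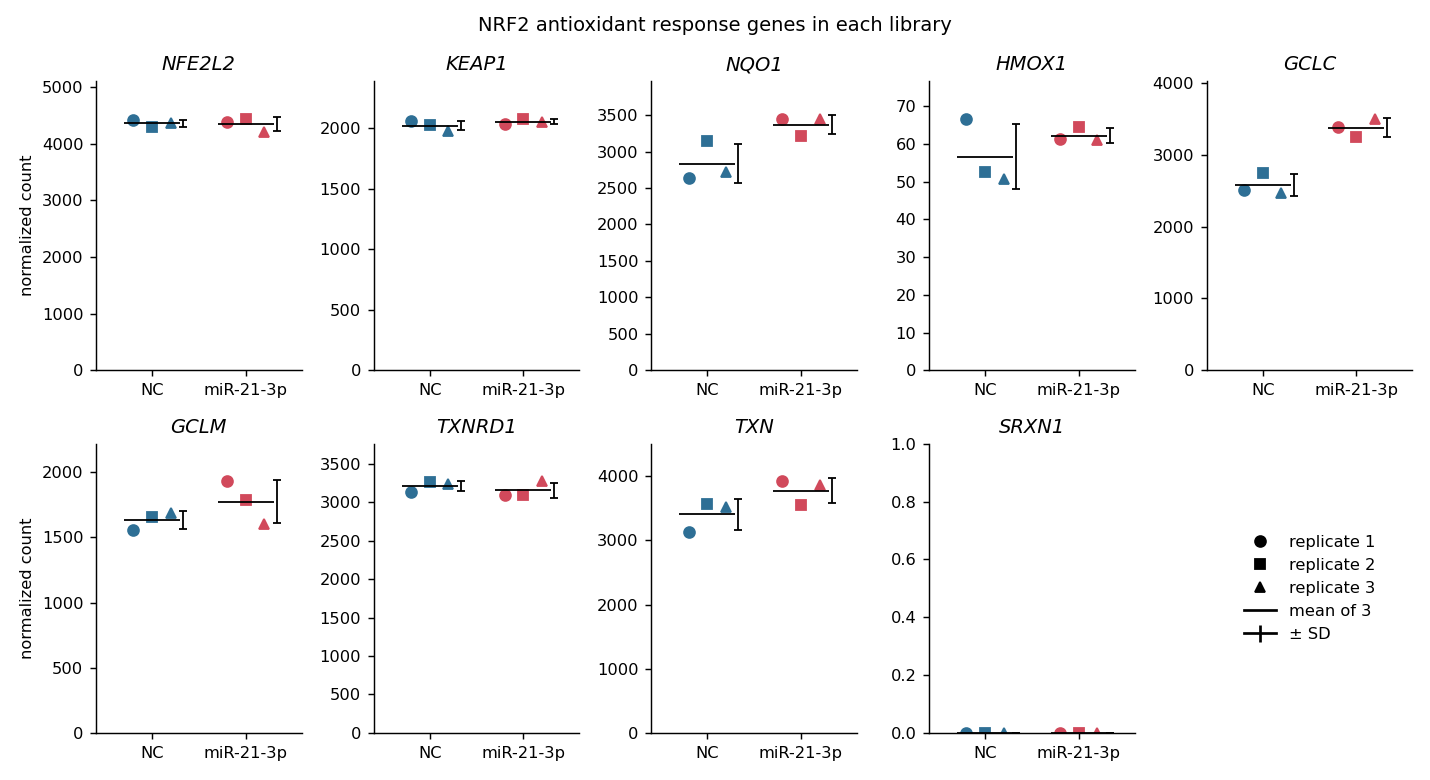
Normalized counts of the 9 NRF2 genes in each library, with NC in blue and miR-21-3p in red; horizontal lines are means of 3 replicates, vertical bars are ± SD and each axis starts at 0. The miR-21-3p libraries of GCLC and NQO1 all lie above the NC libraries, while the groups overlap for the other genes and SRXN1 is at 0 throughout.

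NFE2L2 had 4420, 4300 and 4360 normalized counts in NC replicates 1 to 3 and 4380, 4440 and 4200 in miR-21-3p replicates 1 to 3. Both the highest and the lowest library were miR-21-3p libraries, so the groups overlapped completely. The log2 fold change was -0.01 (SE 0.0438), and its 95% interval ran from -0.10 to 0.09. The limma adjusted p was 0.935, and the sign varied among the alternatives, which gave -0.02 to 0.02. A change of the transcript smaller than this interval was not detectable with these libraries.

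KEAP1, the adaptor that holds NRF2 in the cytoplasm, had 2060, 2030 and 1980 normalized counts with NC and 2040, 2080 and 2050 with miR-21-3p. The ranges overlapped, and the log2 fold change was 0.02 (SE 0.0453) with a limma adjusted p of 0.765. Its coefficient of variation was 2% among NC libraries and 1.01% among miR-21-3p libraries, the narrowest spread in the miR-21-3p group among the 8 genes tested. The mRNA levels of the factor and of its inhibitor were thus measured with little spread, and neither mRNA passed the test between groups.

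GCLC was counted at 2510, 2750 and 2460 with NC and at 3390, 3240 and 3500 with miR-21-3p. The lowest miR-21-3p library, replicate 2, lay above the highest NC library, which was also replicate 2, and the groups did not overlap. Group means were 2573 ± 155 and 3377 ± 130 (SD, n = 3 each). The log2 fold change was 0.39 (SE 0.0529), a fold of 1.31 with a 95% interval from 1.21 to 1.42, and the limma adjusted p was 0.00159. Among all genes tested, 93.6% had a smaller absolute log2 fold change, the median of which was 0.11. GCLC passed the threshold in each of 16 alternative analyses, with adjusted p from 1.99e-07 to 0.0253. The largest of these was found without miR-21-3p replicate 1.

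GCLM, the modifier subunit that lowers the enzyme's sensitivity to feedback by glutathione, gave 1560, 1660 and 1690 normalized counts with NC and 1930, 1790 and 1600 with miR-21-3p. Here the groups overlapped, because miR-21-3p replicate 3 lay below NC replicates 2 and 3. The log2 fold change was 0.11 (SE 0.0652), and the limma adjusted p was 0.278. With single libraries left out it ran from 0.05 (without miR-21-3p replicate 1) to 0.18 (without miR-21-3p replicate 3). GCLM passed in none of the alternatives. Per kilobase of exon the subunits stood at 302 (GCLM) and 298 (GCLC) normalized counts in the NC group, a difference within their spread, and at 327 and 391 in the miR-21-3p group.

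NQO1 had 2640, 3140 and 2720 normalized counts with NC and 3440, 3220 and 3450 with miR-21-3p. The groups did not overlap, but NC replicate 2 and miR-21-3p replicate 2 lay close together. The means were 2833 ± 269 and 3370 ± 130 (SD, n = 3 each), and the coefficient of variation among NC libraries, 9.48%, was above that of GCLC, 6.02%. With a log2 fold change of 0.25 (SE 0.0621), a fold of 1.19 and a 95% interval from 1.09 to 1.31, the limma adjusted p was 0.0223. The call depended on the libraries used. The limma adjusted p was 0.0836 without NC replicate 1, 0.112 without NC replicate 3, 0.108 without miR-21-3p replicate 1 and 0.0899 without miR-21-3p replicate 3, while the log2 fold change stayed between 0.20 and 0.33 when each library was left out in turn. Over all 16 alternatives the adjusted p ran from 0.000252 to 0.112.

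**Figure D2:**
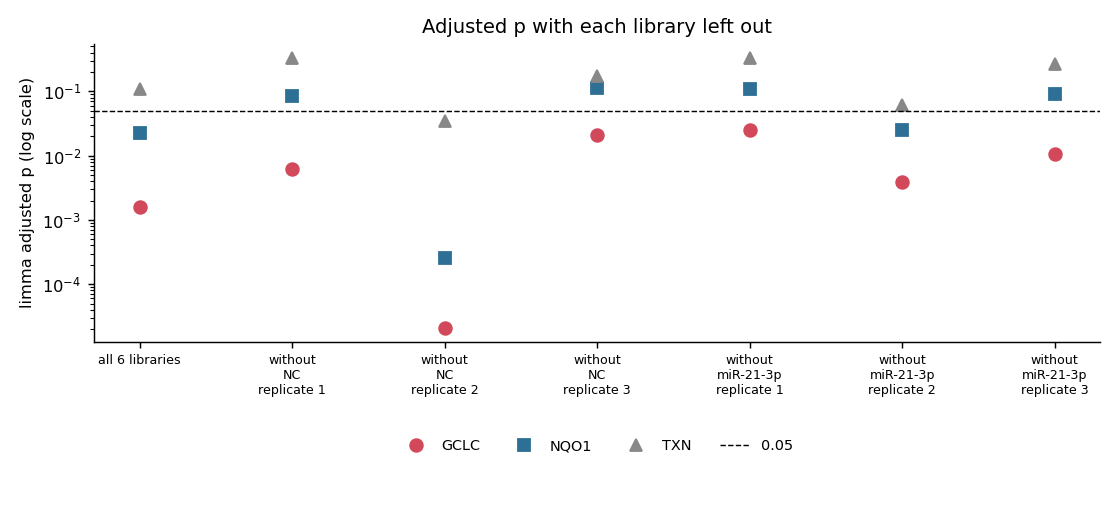
Adjusted p from limma on a log axis for GCLC, NQO1 and TXN with all 6 libraries and with each library left out in turn; the dashed line marks 0.05. GCLC stays below the line throughout, NQO1 crosses it when NC replicate 1, NC replicate 3, miR-21-3p replicate 1 or miR-21-3p replicate 3 is left out, and TXN is below it only without NC replicate 2.

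TXN encodes cytosolic thioredoxin, which reduces protein disulfides, and had 3130, 3570 and 3520 normalized counts with NC and 3920, 3550 and 3860 with miR-21-3p. The groups overlapped through NC replicate 2 and miR-21-3p replicate 2. The log2 fold change was 0.15 (SE 0.0581), with a limma p of 0.0221 before and 0.109 after adjustment. Without NC replicate 2 the log2 fold change was 0.18 and the adjusted p 0.0341. In the other 15 alternatives it did not pass the threshold, and the adjusted p over all alternatives ran from 0.0341 to 0.336. With single libraries left out, the log2 fold change ran from 0.09 (without NC replicate 1) to 0.19 (without miR-21-3p replicate 2).

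TXNRD1, the reductase that recharges thioredoxin with electrons from NADPH, stood at 3130, 3260 and 3240 normalized counts with NC and at 3100, 3100 and 3270 with miR-21-3p. The groups overlapped, with miR-21-3p replicate 3 the highest of all 6 libraries. The log2 fold change was -0.02 (SE 0.0453), with a 95% interval from -0.12 to 0.07 and a limma adjusted p of 0.759. A rise of the size seen for GCLC lies outside this interval.

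HMOX1, the inducible oxygenase that opens the heme ring, was the least abundant of the genes tested. Its normalized counts were 66.7, 52.5 and 50.8 with NC and 61.2, 64.5 and 61.0 with miR-21-3p. NC replicate 1 was the highest library and the groups overlapped. The log2 fold change was 0.14 (SE 0.160), the 95% interval ran from -0.20 to 0.49 and the limma adjusted p was 0.596. A change of the size seen for GCLC lies inside this interval and was not detectable for HMOX1. With single libraries left out, its log2 fold change ran from 0.07 (without NC replicate 3) to 0.26 (without NC replicate 1). With a stricter filter, a mean of at least 5 CPM (counts scaled to a common library total), HMOX1 was not tested.

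SRXN1, which encodes the sulfiredoxin that restores overoxidized peroxiredoxins, was listed at 0 in all 6 libraries and was not tested. In GENCODE 29 (GRCh38) SRXN1 lies on the minus strand at chr20:646615-653370, and overlaps AL121758.1, a gene on the same strand at chr20:646626-675800. AL121758.1 was listed at 1.04, 1.03 and 0 normalized counts with NC and at 0, 1.02 and 0 with miR-21-3p. Reads that fall on overlapping genes can be discarded or split in counting, and the setting used was not given in the sources used here. Nor was the annotation used for counting, so the overlap in it may differ from that in GENCODE 29. The zero is therefore a listing in the table and not a measured absence of the transcript.

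**Figure D3:**
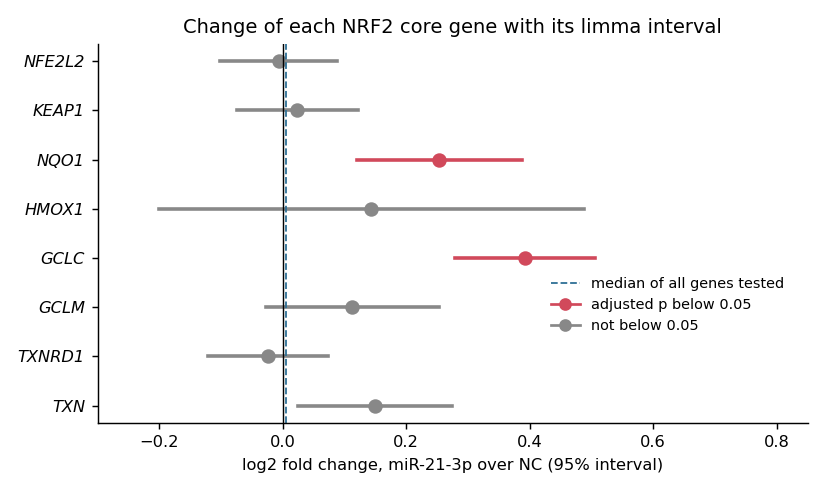
Log2 fold change of miR-21-3p over NC for the 8 NRF2 genes tested, with 95% limma intervals; red marks adjusted p below 0.05 and the dashed line is the median of all genes tested. GCLC (0.39) and NQO1 (0.25) lie to the right of 0 with their whole interval, as does TXN (0.15), which did not pass after adjustment.

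Taken as a list, 6 of the 8 genes had a log2 fold change above 0, as did 7547 of all 14782 genes tested. Their median log2 fold change was 0.13, beside 0.00 for all genes tested. Libraries of the groups did not overlap for 2 of the 8 genes, beside 31.3% of all genes tested, so full separation was no more frequent here than in the table at large.

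Levels were compared between genes per kilobase of exon, with exon lengths from GENCODE 29. In the NC group TXN was the highest at 2983 ± 211 normalized counts per kilobase (SD, n = 3). NQO1 followed at 871 ± 82.5 and NFE2L2 at 729 ± 10.04. KEAP1 stood at 538 ± 10.7, and HMOX1 was the lowest at 23.6 ± 3.63. Only the neighbours GCLM and GCLC overlapped in this order, in the NC libraries. The annotation used for counting was not given in the sources used here, so these lengths may differ from those behind the counts.

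**Figure D4:**
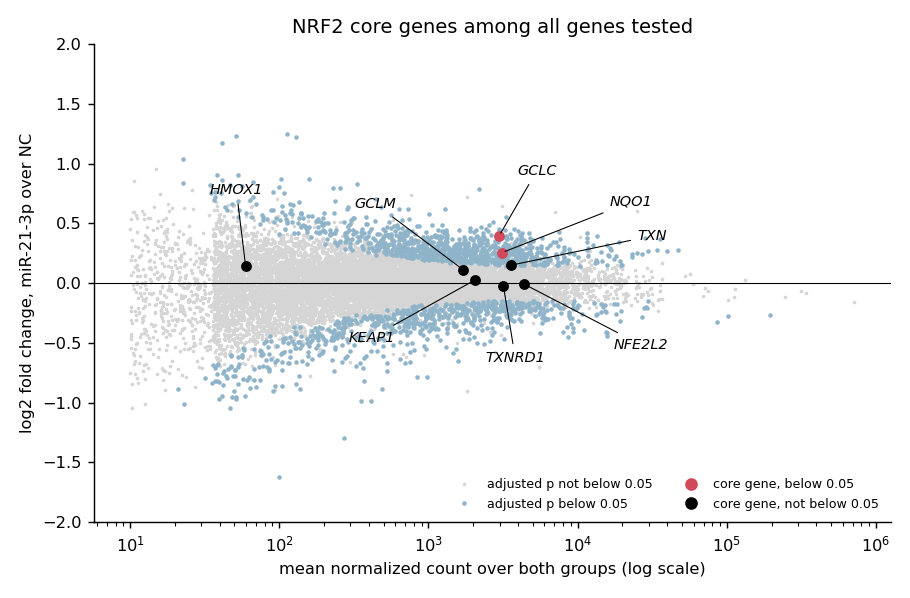
Log2 fold change against mean normalized count (log axis) for all 14782 genes tested, with genes of adjusted p below 0.05 in blue and the NRF2 genes as large points; 2 genes beyond an absolute log2 fold change of 2 are not drawn. GCLC and NQO1, in red, lie among the genes that passed, and HMOX1 lies where the scatter is wide.

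Promoter sequences close to the starts were examined as a description. Whether they bear on which genes rose was not tested. RefSeq promoter windows (GRCh38.p14, from 250 bases before to 50 bases after a start) were matched by symbol to 8 of the 9 genes and gave 11 windows. Both strands were searched for TGACNNNGC, the core of the antioxidant response element and the only motif searched. It was present in 4 of the 11 windows, from the 3 genes GCLM, KEAP1 and TXNRD1. Among all 35116 promoter windows 13.3% held it, and among the 104 windows of the other pathway genes described further on 20.2% did. A match from each of these 4 windows is shown with 20 bases on either side, the matched bases in capitals, 5′ to 3′ in the direction of the gene. A position counts bases from the start, negative before it. The KEAP1 window and the first TXNRD1 window each held another match, at positions -54 and -8, which is not marked here.
GCLM, position -34, chr1:93909436-93909484, minus strand: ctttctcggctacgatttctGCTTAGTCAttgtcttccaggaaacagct
KEAP1, position -31, chr19:10502774-10502822, minus strand: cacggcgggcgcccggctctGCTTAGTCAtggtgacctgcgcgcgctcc
TXNRD1, position -99, chr12:104215660-104215708, plus strand: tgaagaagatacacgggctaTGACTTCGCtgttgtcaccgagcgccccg
TXNRD1, position -102 of its second start, chr12:104286910-104286958, plus strand: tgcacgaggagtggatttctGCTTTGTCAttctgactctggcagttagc

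GCLM, KEAP1 and TXNRD1, whose windows held a match, had log2 fold changes of 0.11, 0.02 and -0.02, and none passed the limma test. The windows of both genes that rose held no match. Their 250 bases before the start are shown so that they can be compared with the matched stretches, and they carry no capitals because nothing in them matched.
GCLC, chr6:53545102-53545351, minus strand: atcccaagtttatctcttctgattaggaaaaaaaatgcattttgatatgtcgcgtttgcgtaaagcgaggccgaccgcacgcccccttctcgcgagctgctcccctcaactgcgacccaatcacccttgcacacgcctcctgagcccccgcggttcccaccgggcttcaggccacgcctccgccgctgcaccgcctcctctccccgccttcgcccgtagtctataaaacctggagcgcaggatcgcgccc
NQO1, chr16:69726561-69726810, minus strand: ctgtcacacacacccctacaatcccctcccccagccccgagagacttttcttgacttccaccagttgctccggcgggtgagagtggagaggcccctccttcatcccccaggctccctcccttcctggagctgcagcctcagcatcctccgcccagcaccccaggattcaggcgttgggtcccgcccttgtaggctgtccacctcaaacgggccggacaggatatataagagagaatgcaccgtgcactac
A match is a run of letters and not a measured binding site, and the lack of one says only that these letters are not in the window. Bases further from the start were not searched, so elements of GCLC and NQO1 outside these windows would be missed.

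The genes around this core were grouped into 7 lists by their place in the pathway. Of 91 genes, 84 had a row in the table and all 84 were tested. Of these, 8 rose, 8 fell and 68 did not pass, with a median log2 fold change of 0.03. The share of genes called can be read beside 11.1% of all genes tested. The number called among the 84 depended on the libraries, as it was 25 without NC replicate 2 but 5 without NC replicate 1, 1 without NC replicate 3, 3 without miR-21-3p replicate 1 and 4 without miR-21-3p replicate 3. Of the 16 genes called with all libraries, NFE2L3 was the only gene called in every one of the 6 analyses that left out a library, 2 genes (PRDX1 and IDH1) were called in 5 and the other 13 in fewer. SQSTM1, NFE2L1, TXNIP, SOD1, TALDO1, ALDH3A1, CYP1B1 and ARNT were each called in 2 of the 6, and CREBBP, GSR and ME1 in 1.

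**Figure D5:**
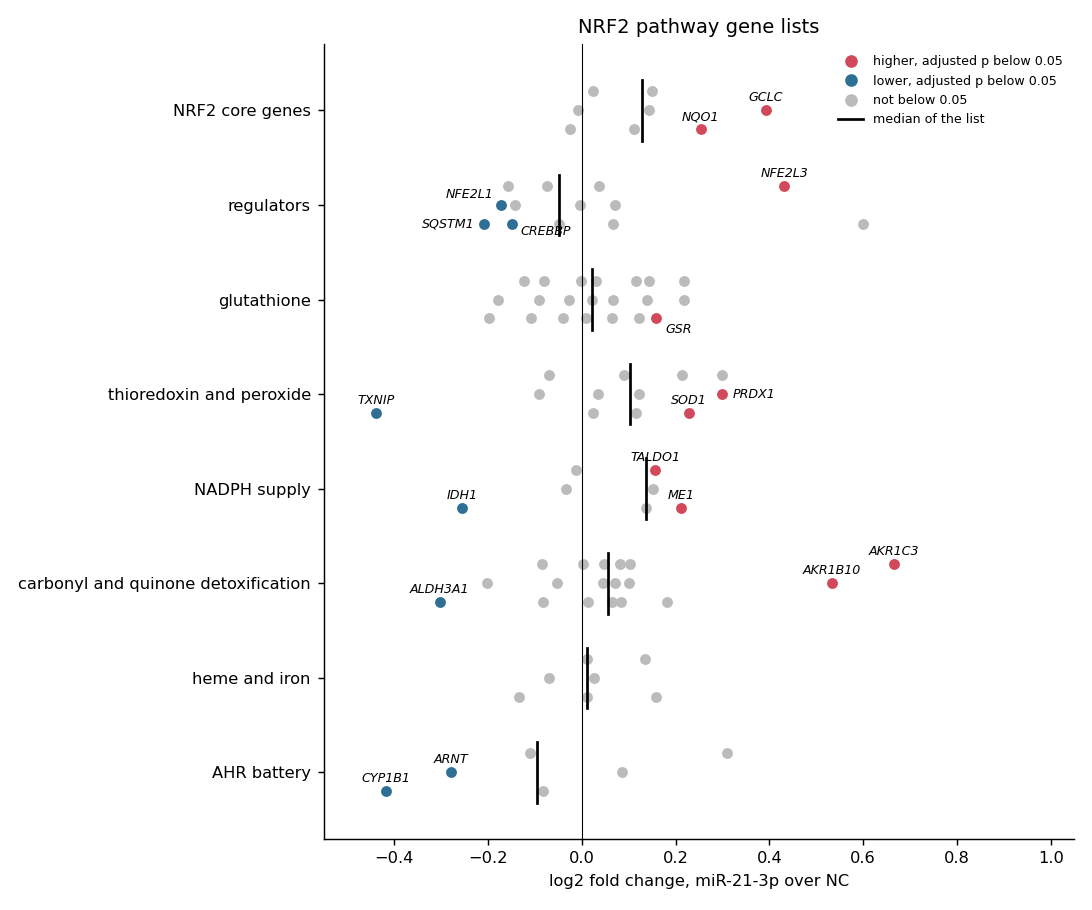
Log2 fold change of miR-21-3p over NC for the tested genes of the NRF2 core and of 7 pathway lists; each point is a gene, red and blue points passed an adjusted p of 0.05 and bars are list medians. Genes above and below 0 occur in every list, and genes that passed are named.

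Among 13 regulators, 1 rose and 3 fell, with a median log2 fold change of -0.05. NFE2L3, a relative of NRF2 of the same cap'n'collar family, had 427, 444 and 434 normalized counts with NC and 600, 575 and 586 with miR-21-3p. The groups were far apart compared with their spread, and the limma adjusted p was 0.00331 at a log2 fold change of 0.43. NFE2L1, the family member known for control of proteasome genes and the most abundant of the list by CPM, had 18900, 17900 and 19200 normalized counts with NC and 16300, 17300 and 16100 with miR-21-3p. It fell by 0.17 on the log2 scale with a limma adjusted p of 0.0357, which reached 0.172 without NC replicate 3. The NFE2L1 call was absent without NC replicate 1, NC replicate 3, miR-21-3p replicate 1 or miR-21-3p replicate 3, while its log2 fold change stayed between -0.20 and -0.15 when each library was left out in turn.

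SQSTM1, the autophagy receptor that can bind KEAP1 and is itself an NRF2 target, had 9150, 7930 and 8680 normalized counts with NC and 7370, 7690 and 7200 with miR-21-3p. It fell by 0.21 on the log2 scale (limma adjusted p 0.0285), and the adjusted p was up to 0.121, without miR-21-3p replicate 1. CREBBP, a coactivator, fell by 0.15 on the log2 scale (limma adjusted p 0.0427), a call found in 1 of the 6 analyses that left out a library, with an adjusted p of up to 0.125 without NC replicate 3. BACH1, which competes with NRF2 for its elements, had a log2 fold change of -0.14 with a limma adjusted p of 0.110. It passed without NC replicate 2 only, with an adjusted p of 0.0290. The ubiquitin ligase scaffold CUL3 and the small MAF partners MAFF, MAFG and MAFK had log2 fold changes of 0.07, 0.07, -0.05 and 0.04, and none passed.

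Enzymes and transporters of glutathione were represented by 21 of 24 genes, as GPX3, GSTM2 and GSTM3 had no row in the table. GSR alone passed, with 2660, 2810 and 2860 normalized counts with NC and 3050, 3070 and 3180 with miR-21-3p. This reductase, which recycles oxidized glutathione, rose with a log2 fold change of 0.16 and a limma adjusted p of 0.0434. The call was close to the threshold and was absent in 5 of the 6 analyses that left out a library (0.150 without miR-21-3p replicate 3) and in 4 of the other 10 alternatives. GSTP1, a glutathione transferase and the most abundant of the list by CPM, had a log2 fold change of 0.06 and did not pass. Beside GCLC, GSR was thus the only gene of glutathione synthesis and recycling to pass, and the median of the list was 0.02.

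Of 13 genes of the thioredoxin and peroxide list, PRDX2 had no row. PRDX1, a peroxiredoxin that thioredoxin reduces, had 6790, 7780 and 7140 normalized counts with NC and 8730, 8510 and 9450 with miR-21-3p. It rose with a log2 fold change of 0.30 (limma adjusted p 0.00840) and failed the threshold only without NC replicate 3, at 0.0569. SOD1, the cytosolic superoxide dismutase, rose with a log2 fold change of 0.23 (limma adjusted p 0.0437, up to 0.183 without NC replicate 3). The median of the list was 0.10.

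TXNIP, the protein that binds and inhibits thioredoxin, was the gene that fell in this list and the most abundant by CPM. It had 18900, 15600 and 19700 normalized counts with NC and 13000, 15200 and 11800 with miR-21-3p. NC replicate 2 and miR-21-3p replicate 2 came within a narrow distance of each other, as they did for NQO1 and TXN. TXNIP fell by 0.44 on the log2 scale, with a limma adjusted p of 0.0439 that reached 0.195 without NC replicate 1.

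NADPH feeds both the glutathione and the thioredoxin reductases, and all 7 genes of its supply were tested, with 2 higher, 1 lower and a median of 0.14. ME1, malic enzyme, rose with a log2 fold change of 0.21 (limma adjusted p 0.0341), and TALDO1, transaldolase of the pentose phosphate pathway, with 0.16 (limma adjusted p 0.0471). Both calls were lost in at least 4 of the 6 analyses that left out a library, with limma adjusted p of up to 0.147 for ME1 without miR-21-3p replicate 1 and 0.183 for TALDO1 without NC replicate 3. Of the other 10 alternatives, ME1 was called in 9 and TALDO1 in 5. IDH1, the cytosolic isocitrate dehydrogenase, went the other way. Its normalized counts were 8450, 8260 and 8380 with NC and 7240, 7270 and 6550 with miR-21-3p, a log2 fold change of -0.25 with a limma adjusted p of 0.00866. Without NC replicate 3 the adjusted p was 0.0571. TKT, transketolase, was the most abundant by CPM and had a log2 fold change of -0.01.

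The carbonyl and quinone detoxification list had 18 of 19 genes tested, as UGT1A6 had no row, with 2 higher, 1 lower and a median of 0.06. AKR1C3, an aldo-keto reductase, had 80.2, 106 and 85.9 normalized counts with NC and 146, 159 and 127 with miR-21-3p (log2 fold change 0.67, limma adjusted p 0.0123). AKR1B10, another reductase of the superfamily, had 95.9, 98.9 and 79.1 with NC and 133, 135 and 128 with miR-21-3p (log2 fold change 0.53, limma adjusted p 0.0200). These genes have near-identical relatives that can share reads, so their values are uncertain, and both were below the strict filter of 5 CPM. The limma adjusted p reached 0.0649 for AKR1C3 without miR-21-3p replicate 1 and 0.103 for AKR1B10 without NC replicate 3. ALDH3A1, an aldehyde dehydrogenase, fell by 0.30 on the log2 scale (limma adjusted p 0.0270, up to 0.116 without NC replicate 3). ALDH3A2, the most abundant of the list by CPM, had a log2 fold change of -0.08 and did not pass.

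In the heme and iron list 0 of 7 genes tested passed the limma adjusted p of 0.05, while ABCB6 and SLC40A1 had no row. At an unadjusted limma p of 0.05 there were 3. The share of all genes at that unadjusted p was not computed, so these 3 are not read as a result. DESeq2 and edgeR on recovered reads called 0. Without NC replicate 2 a single gene passed. FTH1, the ferritin heavy chain and the most abundant of the list by CPM, had a log2 fold change of -0.13 and a limma adjusted p of 0.148.

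NQO1 is also a known target of the aryl hydrocarbon receptor, for which 6 genes were tested. None rose and 2 fell, with a median of -0.10. CYP1B1, a cytochrome P450 induced by this receptor, had 6840, 5640 and 6840 normalized counts with NC and 4930, 5250 and 4280 with miR-21-3p. CYP1B1 fell by 0.42 on the log2 scale (limma adjusted p 0.0198, up to 0.102 without NC replicate 1). ARNT, the receptor's partner, fell by 0.28 on the log2 scale (limma adjusted p 0.0241, up to 0.110 without NC replicate 3). CYP1A1, the best known target of the receptor and named after its values were seen, had 135, 124 and 103 normalized counts with NC and 140, 168 and 140 with miR-21-3p. The miR-21-3p libraries lay above the NC libraries, with a log2 fold change of 0.31 and a limma p of 0.0343 before and 0.140 after adjustment, so it did not pass. The receptor gene AHR, also named after its values were seen, had a log2 fold change of 0.09 and did not pass either. The list thus held values in both directions.

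The transcripts whose pattern over the 6 libraries was most like that of NFE2L2 were RNF224, S100A14, TOR4A, IFNGR2 and PLA2G2A. Their Pearson r with NFE2L2 in log2 CPM was 0.989, 0.989, 0.987, 0.985 and 0.976. None of the 5 passed the test between groups, and 90 genes had an r above 0.9. Among the NRF2 genes, TXNRD1 had an r of -0.94 and GCLC of -0.24. With 6 libraries and a narrow range of NFE2L2, these values describe the libraries only.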

How the data were processed

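Per the labels, polyA RNA of 6 HaCaT libraries was sequenced by the authors with a stranded mRNA kit, whereas the methods of the study speak of small RNA libraries; the labels were followed. Per the submitters' processing notes, bcl2fastq 2.18.12, cutadapt 1.15, TopHat2 2.1.1, featureCounts of Subread 1.5.2 and DESeq2 were used; genome build and annotation were not given in the sources used here. The deposited values are a signal, gene counts divided by size factors, kept to 3 significant digits. Of values up to 20 reads, 100% were whole multiples of 1 read per library (tolerance 0.1), so reads were recovered by division and rounding; those of higher values are approximate, as the file rounds them. As the table held normalized values, the planned edgeR test gave way to limma 3.58.1 (trend, robust) on log2(normalized count + 1), for genes with a mean of at least 10, and Benjamini-Hochberg adjusted p below 0.05 was called. This scale understates changes of low genes. edgeR 4.0.16 with TMM on recovered reads called 1693 genes and DESeq2 1.42.0 called 1599. The members and lists were chosen with earlier results of these data known. Named were all members, called list genes (up to 6 per list), the most abundant gene of each list, 6 fixed regulators and the 5 genes most like NFE2L2; CYP1A1, AHR and cell type markers were named besides. Intervals cover 95%. Replicates are biological, per the labels.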

Additional observations from a re-analysis of the deposited data

How the results depend on the processing

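The 16 alternatives were DESeq2 on recovered reads, edgeR with RLE or upper-quartile factors, no filter, a mean of at least 5 CPM, the replicate block, each library left out, and, chosen after seeing the data, edgeR with TMM, pseudocounts of 0.5 and 5 and scaling to library totals. GCLC kept its direction and its call in all 16 and NQO1 its direction in all 16 and its call in 12. None of the called genes of the core and pathway lists changed sign, while NFE2L2, MAFG, MAFK and TKT, which did not pass, had values on both sides of 0. The median log2 fold change of the NRF2 genes ranged from 0.08 to 0.15. Leaving out a library, which also leaves fewer samples, gave 257 to 3058 genes called (149 to 1670 higher, 108 to 1388 lower), 1 to 3 NRF2 genes called and 1 to 25 genes of the pathway lists called; the cause was not tested. Replicate numbers did not pair the libraries, as deviations of same-numbered libraries correlated at -0.0774, -0.295 and -0.315 over 12173 genes. Those of other pairs across the groups ranged from -0.161 to 0.430, and no library correlated best with its own number. The best partners were NC replicate 1 with miR-21-3p replicate 2 (0.234), NC replicate 2 with miR-21-3p replicate 3 (0.430) and NC replicate 3 with miR-21-3p replicate 1 (0.271). A block by replicate number does not model this pattern, and its source was not tested. With the replicate block 1095 genes were called (611 higher), with 8 genes of the pathway lists, and 2 NRF2 genes. The calls of SQSTM1, NFE2L1, CREBBP, GSR, TXNIP, SOD1, ME1 and TALDO1 were lost with this block. HMOX1, the least abundant NRF2 gene tested, had the widest error, and the parts of depth and of replicate variation in it were not tested.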
